A study of Mus musculus with 6 samples.

Results

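The fibrillar collagen chains of types I, III and V are encoded in the mouse by Col1a1, Col1a2, Col3a1, Col5a1, Col5a2 and Col5a3. These 6 genes were taken by symbol from the 54393 genes of the deposited table, and all 6 passed the filter on low values (10 or more normalized counts on average), as did 16031 genes in all. RNA was sequenced from adult mouse tibialis anterior, the fast muscle along the shin. The groups were 3 wild-type muscles (WT, titled C57 by the submitters) and 3 muscles labelled Dock3 KO, with no treatment named for either. Per-sample values are always given in the order WT replicates 1, 3 and 4, then Dock3 KO replicates 1, 2 and 3. Dock3 is a guanine nucleotide exchange factor that activates the small GTPase Rac. The comparison asks which transcripts differ in adult muscle when Dock3 is knocked out. The labels count muscles and do not say that each came from another animal, so p-values measure the spread between these muscles.

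Fibrillar collagens are the rope-like proteins that carry load in connective tissue. Each chain holds a long uninterrupted repeat in which glycine alternates with a pair of other residues, and the chains wind into a triple helix. Type I collagen joins Col1a1 and Col1a2 chains and is the main fibre of tendon, bone and the sheaths around muscle fibres. Type III is built of Col3a1 chains alone and is abundant in distensible tissue and in the fine network around muscle fibres. Type V is a minor collagen that is built into type I fibrils and limits their width. Col5a1 and Col5a2 form its common trimer, and Col5a3 enters a rarer trimer with both. In muscle these chains come mainly from fibroblasts and related mesenchymal cells, not from the fibres.

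The genes lie at 5 places in the genome (GENCODE M21, GRCm38). Col1a1 is on chromosome 11 (94936224 to 94953042, plus strand), Col1a2 on chromosome 6 (4504814 to 4541544, plus strand), Col5a1 on chromosome 2 (27886425 to 28039514, plus strand) and Col5a3 on chromosome 9 (20770050 to 20815067, minus strand). Col3a1 (45311538 to 45349706, plus strand) and Col5a2 (45374321 to 45503282, minus strand) are neighbours on chromosome 1 whose ends face each other. A repeat of glycine codons, each followed by 2 other codons, ran without a break for 337 to 344 triplets in the 6 reading frames and made up 55.2% (Col5a1) to 74.1% (Col1a2) of the coding codons. No transcript of a gene elsewhere matched a chain at 95% identity over 100 bases or more. Gm47302, a microRNA gene model of 141 exonic bases within Col3a1, and 2810430I11Rik, which shares 99 exonic bases with Col5a1 on the other strand, were listed at no more than 27.3 and 13.2 normalized counts. Gm13372, also opposite Col5a1, was listed at 0 in all samples.

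The promoters held in RefSeq (GRCm38.p6) for 4 of the 6 chains are shown, and none was available here for Col1a1 and Col5a2. Each runs from 250 bases before to 50 bases after the start of transcription, 5′ to 3′ on the strand of the gene. Capitals mark 3 promoter motifs searched on both strands: CCAAT, the GC box core GGGCGG and the TATA box core TATAAA. The motifs do not overlap each other here. The windows are chr9:20815018-20815317 (minus strand) for Col5a3, chr1:45311288-45311587 for Col3a1, chr6:4505368-4505667 for Col1a2 and chr2:27886175-27886474 for Col5a1 (all 3 on the plus strand).
Col5a3: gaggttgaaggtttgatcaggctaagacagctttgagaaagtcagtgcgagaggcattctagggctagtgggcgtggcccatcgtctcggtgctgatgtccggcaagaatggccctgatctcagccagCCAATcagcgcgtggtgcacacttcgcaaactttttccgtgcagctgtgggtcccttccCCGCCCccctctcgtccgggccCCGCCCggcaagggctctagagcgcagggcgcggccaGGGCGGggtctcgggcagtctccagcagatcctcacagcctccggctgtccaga
Col3a1: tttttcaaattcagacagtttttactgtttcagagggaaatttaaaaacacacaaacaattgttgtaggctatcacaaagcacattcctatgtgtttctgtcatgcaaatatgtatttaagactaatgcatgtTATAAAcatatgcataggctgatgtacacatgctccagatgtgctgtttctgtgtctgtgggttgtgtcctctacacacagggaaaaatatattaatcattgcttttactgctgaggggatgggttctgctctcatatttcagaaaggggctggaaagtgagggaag
Col1a2: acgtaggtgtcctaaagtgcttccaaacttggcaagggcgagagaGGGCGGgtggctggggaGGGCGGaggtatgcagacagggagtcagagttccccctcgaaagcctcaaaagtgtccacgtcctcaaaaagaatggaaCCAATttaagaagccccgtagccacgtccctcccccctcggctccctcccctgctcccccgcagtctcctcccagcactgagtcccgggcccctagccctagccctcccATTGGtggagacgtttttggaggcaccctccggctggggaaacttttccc
Col5a1: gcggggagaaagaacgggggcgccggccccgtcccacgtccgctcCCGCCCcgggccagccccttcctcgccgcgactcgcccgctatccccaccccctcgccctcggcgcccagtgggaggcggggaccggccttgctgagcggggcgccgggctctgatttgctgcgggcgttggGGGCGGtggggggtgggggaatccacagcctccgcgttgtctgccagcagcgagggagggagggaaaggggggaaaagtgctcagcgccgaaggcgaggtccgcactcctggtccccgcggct
The Col5a3 window held 1 CCAAT and 3 GGGCGG matches, and that of Col1a2 held 2 CCAAT and 2 GGGCGG matches. The CCAAT matches of Col1a2 began at -109 and at 1, the first transcribed base. Col5a1 had 2 GGGCGG matches only. The Col3a1 window had a GC content of 37.7% and held 1 TATAAA match, at -117, and neither of the others. Whether any of these matches is in use was not tested. Of 32851 promoters of this length, 37.4% held CCAAT, 35.7% GGGCGG and 13.6% TATAAA. The start used for Col1a2 lies 804 bases downstream of the start of the GENCODE gene. None of the 3 motifs was common to all 4 windows.

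Dock3 checks the genotype labels. It had 169, 161 and 118 normalized counts in the WT muscles against 22.4, 1.78 and 1.54 in the Dock3 KO muscles, where replicate 1 was the highest. The normalized counts of a sample summed to between 23520223 and 33393950. Gm42418 and Lars2 together took 17.9% and 20.3% of the sum in Dock3 KO replicates 1 and 2 and 3.00% to 3.64% in the other 4 samples, so results are also given without these 2 libraries. Muscle fibre genes were abundant in every sample, and 8 of 8 fibre markers were tested with none past the threshold (smallest adjusted p 0.511, limma).

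All 6 chains were higher in Dock3 KO muscle, and in each the lowest Dock3 KO value lay above the highest WT value. Col5a3, Col3a1 and Col1a1 rose at an adjusted p under 0.05 (limma, Benjamini-Hochberg over all genes tested). Of all genes tested, 0.443% rose and 0.586% fell by this test, and 49.0% had a log2 difference above 0. Every Dock3 KO value lay above every WT value for 7.60% of them and below for 8.65%. The median log2 difference of the 6 chains was 0.88, against -0.01 for all genes tested. In bulk muscle, more cells that make a transcript and more transcript per cell cannot be told apart.

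**Figure D1:**
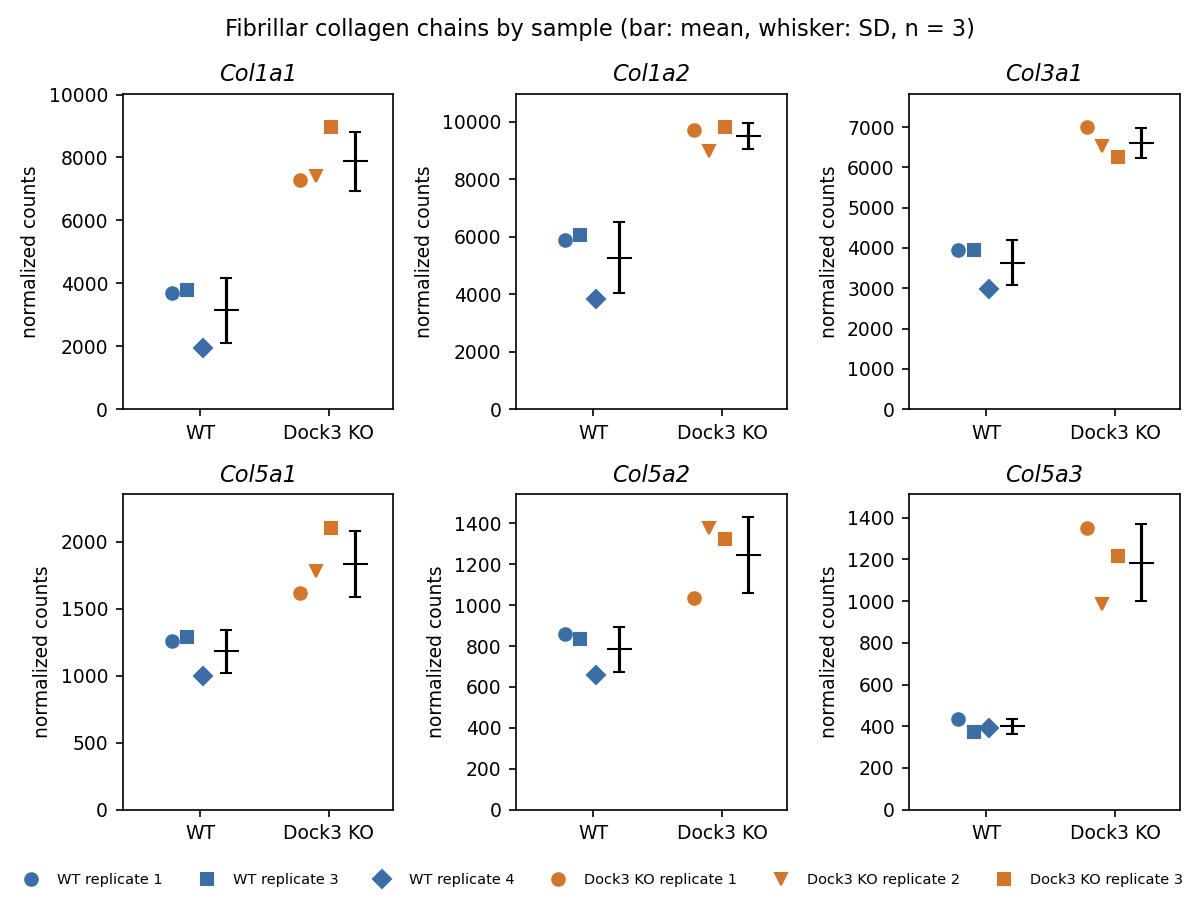
Normalized counts (vertical axes, linear from 0) of the 6 chains in each of 3 WT and 3 Dock3 KO muscles, with mean and SD beside the points. In every panel the 3 Dock3 KO points lie above the 3 WT points, and WT replicate 4 is the lowest WT point for all chains but Col5a3.

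Of the type I chains, Col1a1 had 3688, 3799 and 1954 normalized counts in the WT muscles against 7278, 7411 and 8958 in the Dock3 KO muscles. Its lowest Dock3 KO value was 1.92 times its highest WT value. The means were 3147 ± 1034 and 7882 ± 934 (SD, n = 3 each), a 2.50-fold difference, and the log2 difference was 1.38 with a 95% confidence interval of 0.86 to 1.90 and an adjusted p of 0.0228 (limma). WT replicate 4 stood apart, at 62.1% of the WT mean, and without it the log2 difference was 1.07 (adjusted p 0.0171, limma). Col1a1 was past the threshold under 10 of 18 alternatives, and not when any 1 Dock3 KO replicate was left out (adjusted p 0.0559, 0.0856 and 0.0915 without replicates 1, 2 and 3, limma).

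Col1a2, the partner chain, had 5891, 6051 and 3839 in WT against 9706, 8997 and 9804 in Dock3 KO. The Dock3 KO values lay within 1.09 times of each other, while the WT values spread 1.58-fold, with WT replicate 4 the lowest. The means differed 1.81-fold, and the log2 difference of 0.88 (95% confidence interval 0.49 to 1.28) had an adjusted p of 0.0537, above the threshold of 0.05 (limma). The 18 alternatives gave adjusted p-values between 0.0248 and 0.451, and 3 of them put Col1a2 past the threshold (no filter, a pseudocount of 10, a robust variance prior).

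The chain of type III collagen, Col3a1, had 3951, 3952 and 2988 in WT against 6993, 6541 and 6259 in Dock3 KO. No Dock3 KO value came closer than 1.58 times to the highest WT value. The log2 difference was 0.87 (95% confidence interval 0.56 to 1.19, adjusted p 0.0168, limma), a 1.82-fold difference of the means. It was past the threshold under 9 of 18 alternatives.

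Of the type V chains, Col5a3 had the largest fold difference. Col5a3, the chain of the rarer trimer, had 437, 370 and 390 in WT against 1352, 987 and 1214 in Dock3 KO, so that its lowest Dock3 KO value was 2.26 times its highest WT value. Its means were 399 ± 34.2 and 1185 ± 184 (SD, n = 3 each), a 2.97-fold difference. The log2 difference was 1.56 (95% confidence interval 1.21 to 1.91) with an adjusted p of 0.000769 (limma), the smallest of the 6 chains and rank 36 of all genes tested. Col5a3 was past the threshold under all 18 alternatives, with an adjusted p of at most 0.0406 (limma).

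The common type V chains had smaller log2 differences. Col5a1 had 1259, 1291 and 995 in WT against 1618, 1783 and 2105 in Dock3 KO, and Dock3 KO replicate 1 exceeded the highest WT value by a factor of 1.25. Its log2 difference was 0.64 (95% confidence interval 0.30 to 0.98) with an adjusted p of 0.119 (limma). Col5a2 had 860, 836 and 659 in WT against 1036, 1378 and 1326 in Dock3 KO, with a log2 difference of 0.67 (95% confidence interval 0.30 to 1.03) and an adjusted p of 0.125 (limma). Both intervals lay above 0, yet neither chain passed once all genes were adjusted for, under the main setting or any of the 18 alternatives.

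For each of the 6 chains on its own, p was 0.1 by exact permutation of the sample labels (two-sided), the smallest that 3 against 3 samples allow. Leaving out 1 sample ended some calls (limma). Col1a1 and Col3a1 were both lost without Dock3 KO replicate 1 or without Dock3 KO replicate 2, Col1a1 without Dock3 KO replicate 3 and Col3a1 without WT replicate 4 (adjusted p 0.0645). Without Dock3 KO replicates 1 and 2, the libraries rich in Gm42418 and Lars2, replicate 3 alone was compared with the 3 WT samples and assumed to vary like them. The log2 differences were then 1.57 for Col1a1, 0.93 for Col1a2, 0.80 for Col3a1, 0.84 for Col5a1, 0.77 for Col5a2 and 1.61 for Col5a3. Col5a3 alone passed the threshold in that fit (adjusted p 0.0324, limma), and the adjusted p of Col3a1 was 0.355. The differences stayed within the confidence intervals of the 6-sample fit, while the calls for Col1a1 and Col3a1 were lost.

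**Figure D2:**
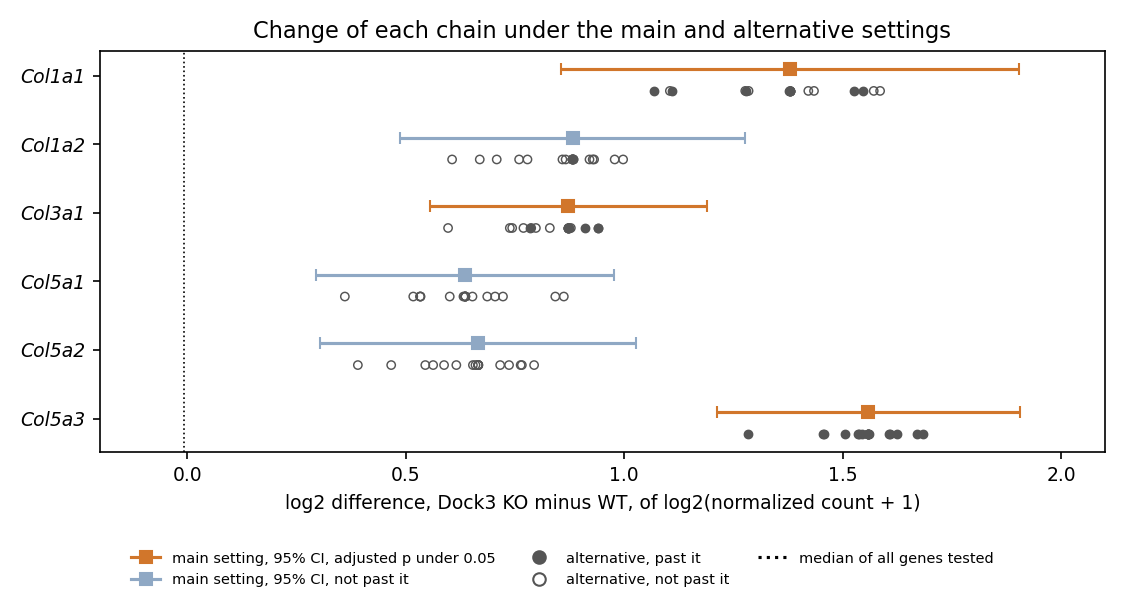
Squares give the log2 difference of each chain (Dock3 KO minus WT, horizontal axis) with its 95% confidence interval, orange where the adjusted p was under 0.05. Circles give the same difference under 18 alternatives, filled where past the threshold. All circles lie above 0, and those of Col5a3 are all filled.

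Levels of different genes were compared per kilobase of the longest coding transcript. In WT muscle Col1a2 was the most abundant chain at 984 ± 231 normalized counts per kb (SD, n = 3), followed by Col3a1 at 652 ± 99.9 and Col1a1 at 531 ± 174. The type V chains were lower, with Col5a1 at 141 ± 19.3, Col5a2 at 118 ± 16.6 and Col5a3 at 65.2 ± 5.59 per kb. Over the WT samples the ranges of Col3a1 and Col1a1 overlapped, as did those of Col5a1 and Col5a2. Within each of the 3 WT samples, however, Col3a1 was above Col1a1 and Col5a1 above Col5a2. The ratio per kb of Col1a1 to Col3a1 was 0.876, 0.902 and 0.614, and that of Col5a2 to Col5a1 was 0.867, 0.822 and 0.840.

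The order was not the same in Dock3 KO. Col1a2 stayed first at 1777 ± 82.3 per kb, but the mean of Col1a1 (1329 ± 157) was now above that of Col3a1 (1186 ± 66.6), with ranges that overlapped (SD, n = 3 each). Within samples, Col1a1 was above Col3a1 in Dock3 KO replicates 2 and 3 and below it in replicate 1. The means of Col5a1, Col5a3 and Col5a2 were 218 ± 29.5, 194 ± 30.1 and 188 ± 27.9 per kb, and the ranges of all 3 overlapped. Col5a1 was above Col5a2 within each Dock3 KO sample, while Col5a3 was above both in replicate 1 and below both in replicates 2 and 3. Col5a3, the least abundant chain in every WT sample, thus had values that overlapped those of the other type V chains. As a share of the summed level per kb of the 6 chains, Col1a1 made up 17.7% to 22.7% in WT and 25.2% to 29.5% in Dock3 KO. Col5a3 made up 2.14% to 3.42% and 3.44% to 4.54%, and Col1a2 38.5% to 40.1% and 35.8% to 37.3%. These shares sum to the whole, so they do not vary independently.

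Ratios between chains were then taken within each sample, where the factor that scales a sample cancels. Each pair was ordered so that its mean log2 ratio was higher in Dock3 KO, so the common direction is set by the ordering. Of 15 pairs of chains, 8 had ratios that did not overlap between genotypes, and each of these 8 held Col1a1 or Col5a3 over a chain that was neither. These are the chains with the largest log2 differences, so the 8 pairs restate those differences. The share of such pairs among other genes was not worked out. For each, exact permutation of the log2 ratios (two-sided) gave p = 0.1, again the smallest possible, and 0.1875 after adjustment over the 15 pairs. The pairs share chains and are not independent.

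Within type I, the ratio of Col1a1 to Col1a2 was 0.626, 0.628 and 0.509 in WT against 0.750, 0.824 and 0.914 in Dock3 KO. Its means were 0.588 ± 0.068 and 0.829 ± 0.082 (SD, n = 3 each), so the log2 ratio differed by 0.50. Per kb of transcript, the mean ratio was 0.530 in WT and 0.748 in Dock3 KO. All 3 Dock3 KO ratios lay above all 3 WT ratios, of which that of WT replicate 4 was the lowest.

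Within type V, the ratio of Col5a3 to Col5a1 was 0.347, 0.287 and 0.392 in WT and 0.835, 0.554 and 0.577 in Dock3 KO, a log2 difference of 0.92, the largest of the 15. Dock3 KO replicate 1 had the highest ratio, and without it the log2 difference was 0.73. The ratio of Col5a3 to Col5a2 was 0.508, 0.443 and 0.593 in WT and 1.31, 0.716 and 0.916 in Dock3 KO, a log2 difference of 0.89. The ratio of Col5a2 to Col5a1, the chains of the common trimer, was 0.683, 0.648 and 0.662 in WT and 0.640, 0.773 and 0.630 in Dock3 KO. Here the log2 ratio differed by 0.03 (exact permutation p = 1.0), which is less than the SD of either group.

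Across types, Col1a1 over Col5a1 was 2.93, 2.94 and 1.96 in WT and 4.50, 4.16 and 4.25 in Dock3 KO, a log2 difference of 0.74. By contrast, Col1a2 over Col3a1 was 1.49, 1.53 and 1.28 in WT and 1.39, 1.38 and 1.57 in Dock3 KO, a log2 difference of 0.01 (exact permutation p = 1.0). The chromosomal neighbours Col3a1 and Col5a2 had ratios of 4.59, 4.73 and 4.53 in WT and 6.75, 4.75 and 4.72 in Dock3 KO, where replicate 1 stood apart and replicate 3 lay just below the highest WT value. Col5a3 over Col1a1, the 2 chains with the largest differences, overlapped between genotypes (log2 difference 0.18, exact permutation p = 0.6). With 3 against 3 samples, a p of this kind does not show that a ratio was equal in both genotypes.

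**Figure D3:**
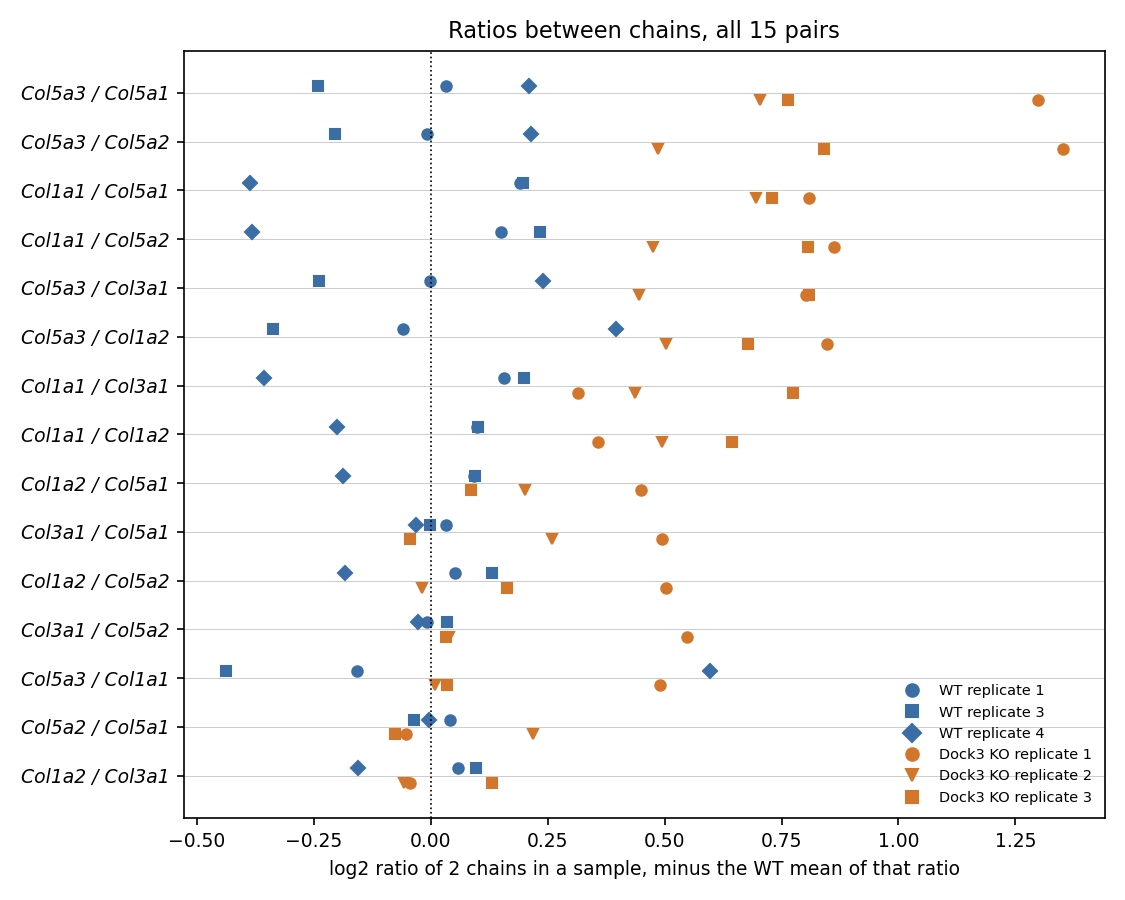
Each row is a pair of chains and each point a sample; the horizontal axis is the log2 ratio of the chains minus its WT mean. Pairs are ordered so that the Dock3 KO mean lies to the right. Orange Dock3 KO points lie to the right of all blue WT points in the top 8 rows and mix with them in the other 7.

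The 7 lists of other genes that build, move, bind, cut or control fibrillar collagen held 83 genes, of which 79 were tested. None of the 79 passed (limma, smallest adjusted p 0.119). At an unadjusted p under 0.05 there were 8 higher and 4 lower, 15.2% of the genes. Of all genes tested, 10.5% were under that p, 4.82% higher and 5.70% lower. From each list, the gene with the highest mean normalized count is described, a choice that does not correct for gene length.

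The other fibrillar collagens (5 of 5 tested) differed in both directions, from -0.93 to 1.77 in log2 difference. Col11a2, a chain of type XI collagen and the highest of them, had 190, 111 and 163 in WT against 221, 202 and 197 in Dock3 KO (log2 difference 0.45, adjusted p 0.534, limma). Of the 5, 2 lay wholly above the WT values (Col2a1 and Col11a2) and 2 wholly below (Col24a1 and Col27a1). Over all genes tested, 7.60% lay wholly above and 8.65% wholly below. Col2a1, the chain of type II collagen of cartilage, and Col24a1 are described, chosen after their values were seen. Col2a1 was low in all samples, at 8.46, 11.5 and 4.18 in WT and 32.3, 16.5 and 41.2 in Dock3 KO (log2 difference 1.77, adjusted p 0.252, limma). Col24a1 was lower in Dock3 KO, at 163, 102 and 147 in WT and 53.5, 85.7 and 75.3 in Dock3 KO. Its log2 difference was -0.93 with an adjusted p of 0.211 (limma).

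The enzymes and chaperones that hydroxylate and fold the chains (19 of 20 tested) had a median log2 difference of 0.09, and 12 of the 19 were above 0. Sparc, a collagen-binding glycoprotein and the highest of the list, had 3478, 3560 and 3431 in WT against 5535, 4147 and 4260 in Dock3 KO (log2 difference 0.40, adjusted p 0.309, limma). Serpinh1, the collagen chaperone Hsp47, named after its values were seen, had 1080, 1368 and 1154 in WT against 1121, 1658 and 1689 in Dock3 KO. Groups overlapped for Serpinh1 but not for Sparc. Of the 19, 2 lay wholly above the WT values (Sparc and P4ha2) and 1 wholly below (Colgalt1). Among all genes tested, the shares were 7.60% and 8.65%.

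Genes of procollagen secretion (10 of 10 tested, median 0.03) and of propeptide removal and fibril assembly (10 of 11 tested, median -0.02) centred near 0. Sar1b, a GTPase of the coat that carries procollagen out of the endoplasmic reticulum, averaged 11163 ± 1364 in WT against 11660 ± 2487 in Dock3 KO (SD, n = 3 each). Tnxb, the matrix protein tenascin X, had means of 7992 ± 1236 and 8490 ± 1836 (SD, n = 3 each). Both differences were smaller than the spread between replicates.

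Collagen receptors (10 of 10 tested) had a median of 0.27. Itgb1, the beta subunit of the collagen-binding integrins, was lower, at 5958, 5026 and 5740 in WT and 4326, 4682 and 3689 in Dock3 KO (log2 difference -0.40, adjusted p 0.297, limma). Of the breakdown genes, 4 of 6 were tested (median 0.10), and the gelatinase Mmp2 had means of 1858 ± 52.7 and 1990 ± 109 (SD, n = 3 each). Of these 4, 2 lay wholly above the WT values (Mmp2 and Mmp14) and 0 wholly below, against 7.60% and 8.65% of all genes tested. Mmp14, named after its values were seen, had 254, 300 and 278 in WT against 504, 371 and 377 in Dock3 KO (log2 difference 0.58, adjusted p 0.228, limma).

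Genes listed under collagen gene control (21 of 21 tested) had a median of -0.01. Tgfbr2, a receptor of transforming growth factor beta and the highest of the list, had a log2 difference of -0.01. Of the 21, 2 were higher and 1 lower with no overlap between genotypes, named after their values were seen. For all genes tested, 7.60% lay wholly above and 8.65% wholly below the WT values. Ccn2, a matricellular protein induced by that growth factor, had 491, 272 and 283 in WT against 525, 796 and 823 in Dock3 KO (log2 difference 1.06, adjusted p 0.119, limma). Creb3l1, a transcription factor that acts on type I collagen genes, had 130, 177 and 82.5 in WT against 256, 214 and 246 in Dock3 KO (log2 difference 0.94, adjusted p 0.198, limma). Nfyb, a subunit of the factor that binds CCAAT, was the lower one, at 816, 563 and 698 in WT and 562, 496 and 419 in Dock3 KO (log2 difference -0.49, adjusted p 0.348, limma).

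**Figure D4:**
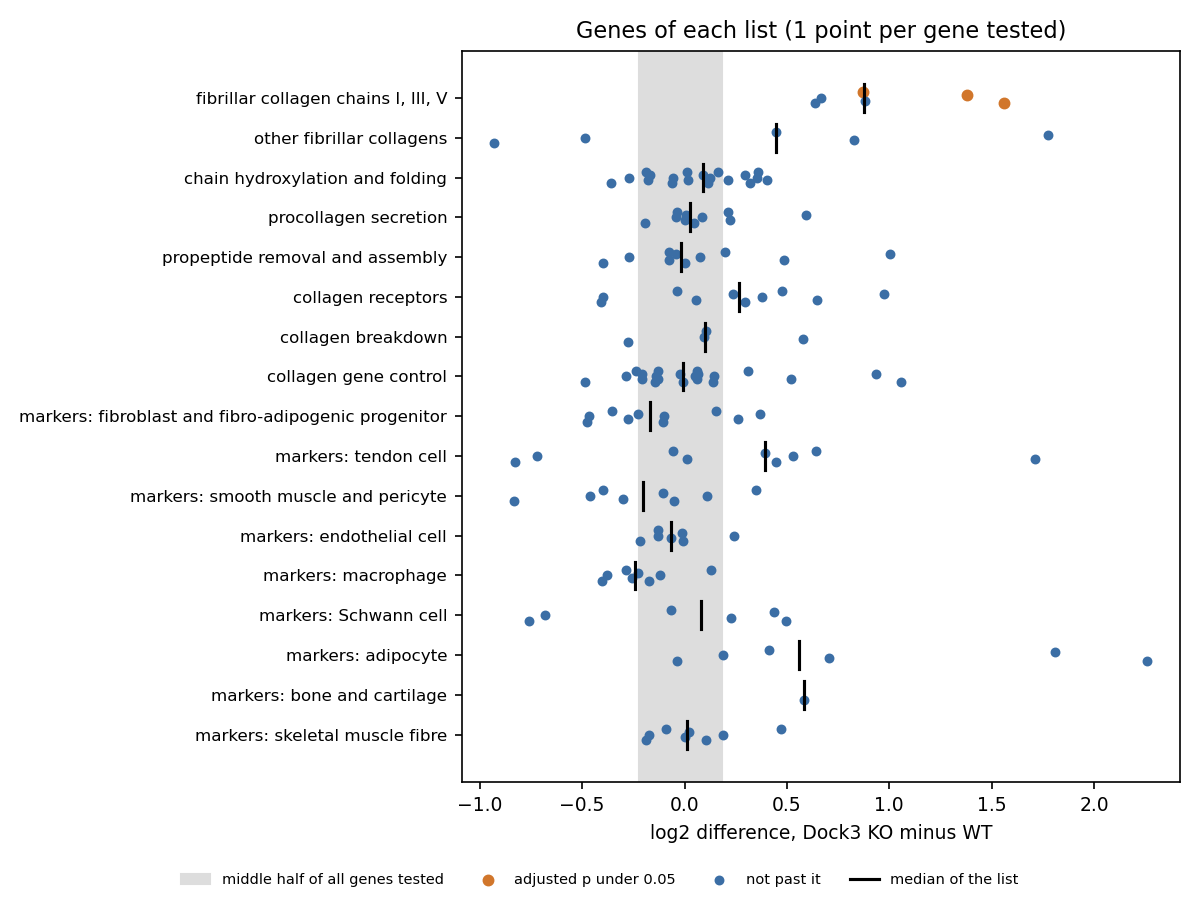
Log2 differences (Dock3 KO minus WT) of each gene tested, by list, with the median of the list as a bar and the interquartile range of all genes tested in grey. Only 3 fibrillar collagen chains are past the threshold (orange), and the medians of the hydroxylation, secretion, assembly and control lists lie inside the grey band.

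Markers of the cells that the muscle holds were summed per sample. The 10 fibroblast and fibro-adipogenic progenitor markers summed to 29852 to 37059 normalized counts in WT and 25804 to 34500 in Dock3 KO, so the groups overlapped. Dcn (decorin), the highest of them by normalized count, had means of 18572 ± 1983 and 15522 ± 3360 (SD, n = 3 each, adjusted p 0.654, limma), and 3 of the 10 had a log2 difference above 0. The summed chains were at 188% to 206% of their WT mean in Dock3 KO, while these markers, with Dcn weighing most, were at 78.6% to 105%. Single markers differed both ways. Of the 10, 2 lay wholly above the WT values (Pdgfra and Smoc2) and 2 wholly below (Cd34 and Pi16), named after their values were seen. For all genes tested, these shares were 7.60% and 8.65%. Whether the number of fibroblasts differed was not tested.

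The 9 tendon cell markers summed to 12650, 9854 and 6440 in WT against 17827, 10247 and 9877 in Dock3 KO. WT replicate 4 was the lowest in this sum and in that of the chains, and Dock3 KO replicate 1 stood at 185% of the WT mean. Fmod (fibromodulin), the tendon marker with the highest normalized count, had 5261, 4128 and 2526 in WT against 8246, 4577 and 4361 in Dock3 KO, which overlap. Cilp2, chosen after its values were seen, did not overlap, at 211, 129 and 61.2 in WT and 400.0, 404 and 368 in Dock3 KO (log2 difference 1.71, adjusted p 0.0736, limma). The 9 markers had a median log2 difference of 0.39, with 6 of them above 0 and a range from -0.83 (Kera) to 1.71 (Cilp2). Whether tendon tissue in the samples bears on the chains was not tested. Without Dock3 KO replicate 1 the log2 differences of Col1a1, Col3a1 and Col5a3 were 1.43, 0.83 and 1.46. Of these only Col5a3 was past the threshold (adjusted p 0.0559, 0.0558 and 0.00364, limma). Without WT replicate 4 the log2 differences of the same chains were 1.07, 0.74 and 1.54. In that fit Col1a1 and Col5a3 were past the threshold (adjusted p 0.0171, 0.0645 and 0.00589, limma).

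No gene of the other 7 marker lists passed (limma). At an unadjusted p under 0.05 there were 4 higher and 4 lower of the 63 markers tested over all 9 lists, 12.7% of them, against 10.5% of all genes tested (4.82% higher and 5.70% lower). Adipocyte markers (6 of 6 tested) had a median log2 difference of 0.56, with 5 of them above 0. Lep (leptin) and Retn (resistin), chosen after their values were seen, were among the 4 higher markers, with log2 differences of 2.26 and 1.81 and groups that overlapped (adjusted p 0.324 and 0.419, limma). The adipocyte sums, in which Fabp4 had the highest normalized count, were 1929.9 to 3455 in WT and 2394 to 3230.3 in Dock3 KO, and their part in the differences of the chains was not tested. Endothelial markers summed to 4252 to 5905 in WT and 4248 to 5233 in Dock3 KO, and macrophage markers to 4253 to 4672 and 3808 to 4267. Of 7 bone and cartilage markers, 2 were listed at 0 in all samples (Ibsp and Matn1) and 1 passed the filter on low values.

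**Figure D5:**
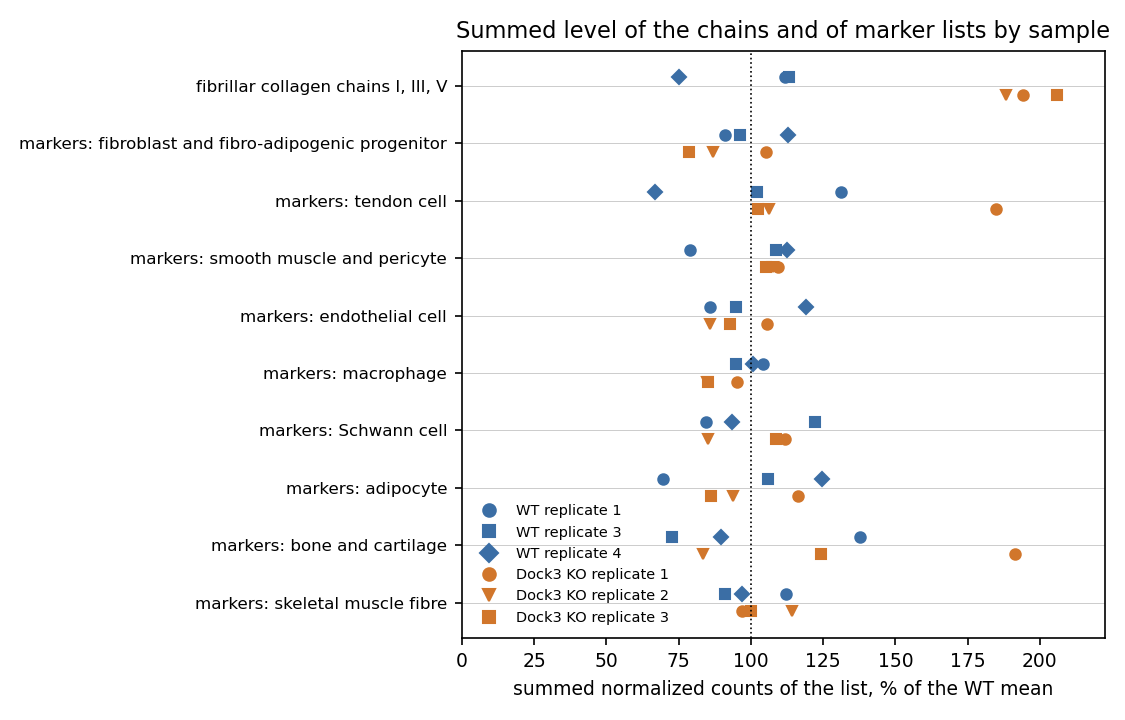
Summed normalized counts of the 6 chains and of each marker list as a percentage of the WT mean (horizontal axis), 1 point per sample. The chains separate the genotypes, the fibroblast and tendon marker sums do not, and Dock3 KO replicate 1 is the highest point for tendon markers.

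Genes with the most alike pattern were sought among 9543 protein-coding genes that averaged 100 normalized counts or more, by Pearson's r over the 6 samples with the mean standardized level of the chains. The 8 highest, with r from 0.977 to 0.999, were Pcdh18, Dapk1, Sh3pxd2b, Col6a1, Pamr1, Mfn2, Fto and Prmt7. The 6 points share the difference between genotypes and the low values of WT replicate 4, and the r is given as a description. Of these genes Col6a1 encodes a chain of type VI collagen, and averaged 1434 ± 123 in WT against 2099 ± 82.4 in Dock3 KO (SD, n = 3 each, log2 difference 0.55, adjusted p 0.0839, limma). Pcdh18, a protocadherin, had means of 167 ± 21.6 and 259 ± 15.1 (SD, n = 3 each), and Dapk1, a calmodulin-regulated kinase, 215 ± 29.0 and 391 ± 34.2 (SD, n = 3 each, adjusted p 0.0474, limma). All 8 had log2 differences between 0.39 and 0.87, and Dapk1 and Fto were the 2 past the threshold. Of all genes tested, 0.443% rose by this test. The choice by r favours genes that are higher in Dock3 KO, so this direction and these calls restate the choice.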

How the data were processed

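Stranded, paired-end libraries were made after removal of ribosomal RNA, per the labels' protocols. The authors deposited normalized counts, treated here as a signal per gene because they are not whole numbers. The submitters' processing notes name FastQC, Trim Galore 0.4.5, Salmon 0.12.0, DESeq2 1.22.1, R 3.5.3 and the mm10/GRCm38 build, with no role or order. The annotation and the use of strand in counting are not given in the sources used here. How reads shared between genes were split is not given either. All 6 columns were used, and all 54393 gene identifiers were found in GENCODE M21.

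The commonest small value in each sample, 0.775 to 1.52 normalized counts, was tried as the worth of 1 read. Only 18.4% to 27.4% of values under 12 were whole multiples of it (tolerance 0.01), so whole reads were not recovered and no count model was used. The depth in reads is thus not known exactly, and no counting interval is given.

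Values were compared as log2(normalized count + 1) over genes with a mean of at least 10, with limma 3.58.1 in R 4.3.3 (lmFit, eBayes with trend, no covariate). Benjamini-Hochberg adjustment covered 16031 genes, with a threshold of 0.05, and the fit was tested on simulated data. Ratios were compared by exact permutation tests (scipy 1.17.1). Copies were searched with blastn 2.17.0. The members, the 16 other lists, the tests and the rule for named genes were chosen with earlier results of these data known. The rule names the 6 chains, genes of a list past the threshold, the gene of each list with the highest mean, Dock3, Gm42418, Lars2 and the 8 genes of most alike pattern. Alternatives covered the pseudocount, the filter, the scaling, the variance prior, log2 Gm42418 as a covariate, a replicate block and samples left out.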

Additional observations from a re-analysis of the deposited data

How the results depend on the processing

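All alternatives were planned, and the cause of each move was not tested unless named. The 6 chains were higher in Dock3 KO under all 18 alternatives. Of the 6, 3 were past the threshold (limma) in the main setting. The number fell to 1, Col5a3, with log2 Gm42418 as a covariate, with rescaling to the same total, with such rescaling without Gm42418 and Lars2, with a variance prior without trend and without Dock3 KO replicates 1 and 2. It ranged from 1 to 3 when 1 sample was left out, and was 4 with no filter, a pseudocount of 10 or a robust prior. Rescaling to the same total, with or without those transcripts, moved the median of all genes by -0.27 and -0.10. Each scaling multiplies a sample by a single factor, which shifts the log2 differences of all genes nearly alike. The distances of Col1a1 and Col3a1 from that median (1.39 and 0.88) were thus bound to stay as in the main setting. They do not test the effect of scaling.

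The 165 genes past the threshold (43.0% higher in Dock3 KO) became 57 with the covariate, 104 without trend and 56 without Dock3 KO replicates 1 and 2, and 100 to 159 when 1 sample was left out (100 without WT replicate 4, 102 without Dock3 KO replicate 2). Rescaling gave 23.2% higher, or 31.9% without Gm42418 and Lars2. Genes of the 16 lists past the threshold numbered 0, against 2 with no filter (Ccn2 and Cilp2), 1 without Dock3 KO replicates 1 and 2 (Kera) and 0 to 2 when 1 sample was left out (Tnmd and Kera without Dock3 KO replicate 1, Ccn2 and Cilp2 without WT replicate 1, Lep without WT replicate 3; limma).

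The replicate block left 127 genes and 2 chains, Col1a1 and Col5a3 (adjusted p 0.187 for Col3a1, limma). Only replicate numbers 1 and 3 occur in both groups, so with the block the genotype difference rests on those samples alone. That fit leaves 1 degree of freedom for the spread of each gene. Nothing in the labels says that same-numbered samples are paired. Their correlations of deviations from the group means were 0.065 and 0.0066, within the range of the other pairs (-0.077 to 0.082). Such values cannot settle whether the samples were paired. All 8 chain ratios that did not overlap kept their direction under 10 alternatives. For some other pairs the difference in log2 ratio (Dock3 KO minus WT) changed sign. For Col1a2 over Col3a1 it was -0.035 with the replicate block and from -0.069 to 0.058 when 1 sample was left out. For Col5a2 over Col5a1 it was -0.067 with the replicate block and -0.077 without Dock3 KO replicates 1 and 2. When 1 sample was left out, it ranged from -0.065 to 0.083 for that pair. For Col3a1 over Col5a1 it was 0.24 in the main setting and -0.044 without Dock3 KO replicates 1 and 2. For Col5a3 over Col1a1 it was 0.18 in the main setting and ranged from -0.041 to 0.48 when 1 sample was left out.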
